A study of Solanum lycopersicum with 21 samples.

Results

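The genes described here were moved in opposite directions by salicylic acid (SA) and jasmonic acid (JA) in tomato leaves. They are the annotated probe sets whose log2 mean differed from the non-treated control (NTC) by at least 1 in one direction after SA and by at least 1 in the other direction after JA, where a log2 difference of 1 is an FC of 2. The SA and JA arrays also had to lie apart, and the mean of SA, JA or NTC had to reach 5. Of 67795 probe sets, 80 met the rule, each from a different gene. In 20 of them the level was higher after SA and lower after JA, and in 60 it was lower after SA and higher after JA. Without the condition on annotation 89 probe sets met it, 23 and 66. The level condition removed 0. Since the members were chosen by their SA, JA and NTC values of experiment 1, those values are given as a description and were not tested as evidence.

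Leaf RNA of tomato cv. Rio Grande, an established cultivar, at 24 h after treatment was read with the GeneChip Tomato Gene ST array, on which a transcript is measured by a probe set. Seedlings of 2 weeks were transplanted and treated 2 weeks later, and each array held RNA pooled from 10 plants. Experiment 1 comprised SA at 2.5 mM, JA at 2.5 mM, ethylene (Et) from ethephon at 1 mM with phosphate buffer at 2.5 mM, the hybrid antimicrobial peptide BP178 at 125 µM, and water (NTC). Experiment 2 comprised flg15, a fragment of bacterial flagellin, at 125 µM and its own water NTC. Each of the 7 groups had 3 arrays. The methods describe a sealed chamber for Et and no enclosed control, although the sample titles give Et as sprayed. Any effects of a chamber and of Et cannot be told apart. The methods call the 3 pools of a group biological replicates, and the p-values measure the spread between such pools. Array medians lay between 2.63 and 2.85 on the log2 scale. The 5 probe sets of Rubisco small subunits and chlorophyll-binding proteins averaged 9.75 to 10.73 on all arrays, and 3 fruit ripening genes averaged 1.69 to 2.01.

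SA and JA are hormones of plant defense. JA binds with its receptor COI1 to JAZ repressors, which are then degraded and release MYC2, and in tomato leaves this route switches on proteinase inhibitors and enzymes that make the leaf hard to digest for chewing insects. SA acts through NPR1 proteins and is known for defense against pathogens that feed on living tissue, and in many plants each hormone can dampen the responses of the other.

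The hormone treatments showed in the pathway lists. Of 10 JA synthesis probe sets 4 were called higher after JA, namely loxD by 2.49, aos by 3.74, aoc by 2.32 and opr3 by 2.16, and 0 were called lower. A call here means that the FC reached 2, or 0.5 downward, with an adjusted p below 0.05 in limma, which 1.64% of all probe sets met upward and 1.70% downward after JA. Of 3 JA signalling probe sets 2 were called higher after JA, the MYC2 factor by 1.64 and the JAZ repressor gene SLJAZ3 by 3.10. Of 3 NPR1-type probe sets 2 were called higher after SA, NPR1 by 1.47 and NML1 by 1.39, against 2.26% of all probe sets upward and 2.12% downward. Among the 10828 annotated probe sets in which SA, JA or NTC averaged at least 5, 10.3% were called upward and 9.83% downward after SA, and 7.62% and 7.60% after JA. No gene of these 3 lists met the opposite rule. Of the JA synthesis genes, aos was called higher after SA as well, by 1.89. Of 10 JA marker probe sets, 6 were called higher after JA and 3 lower after SA, and 4 were members. The 3 called lower after SA, Td, LOC101259064 and LOC101259357, are members, so the rule used their SA values. Without NTC replicate 3 of experiment 1, described below, their SA differences were -1.82, -0.97 and -0.84, and only Td kept at least 1 in size. Of 7 SA marker probe sets, 2 were called higher and 1 lower after SA, 3 higher after JA, and 1, a PR5 gene, was a member in the direction of JA. The 2 called higher after SA, CHI3 and CHI17, are chitinases listed as PR3 and PR4 type. The study describes expression of PR3 and PR4 genes as a mark of the JA pathway. The PR1 probe sets PR1b1 and P4 averaged only 3.06 and 1.80 after SA and were not called, so this list says little about SA.

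An NTC array has to be considered before the members. In 47 of the 60 members that were lower after SA, replicate 3 of the NTC of experiment 1 was the highest of the 3 NTC arrays, and in 28 it stood at least 1 above both others on the log2 scale. Among those 10828 annotated probe sets it was the highest in 32.6% and stood that far above in 0.628%. In the 60 members its excess over the mean of replicates 1 and 2 had a median of 1.03 and reached 4.18. In the 20 members that were higher after SA the same median was -0.03, and in 0 of them did the array stand 1 above both others. The excess raises the NTC mean, so it enlarges the SA difference of these members and reduces their JA difference. Without that array, 34 of the 60 members and 16 of the 20 still met the rule. The median SA difference of the 60 went from -1.47 to -1.08 and their median JA difference from 1.98 to 2.19. Leaving out any other SA, JA or NTC array kept between 52 and 60 of the 60. In all, 24 of the 60 and 13 of the 20 met the rule whichever of the 9 arrays was left out. SA values are therefore given below with and without this array where it decides them.

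**Figure D1:**
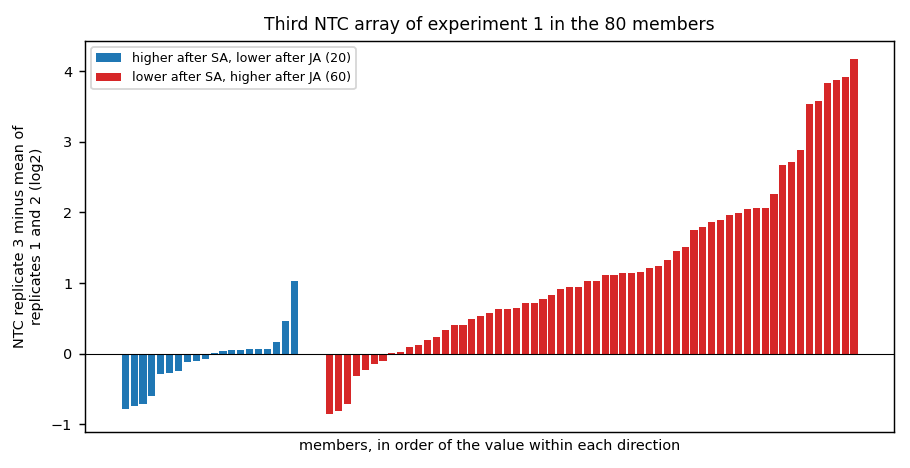
Value of NTC replicate 3 of experiment 1 minus the mean of replicates 1 and 2 (vertical axis, log2) for each of the 80 members, ordered within each direction. Bars are single members; those lower after SA and higher after JA reach 4.18, while the 20 members higher after SA lie between -0.78 and 1.03.

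The NTC of experiment 2 gave another view of the controls. Measured against it, the SA difference kept its sign in 20 of 20 and 53 of 60 members, and the JA difference in 12 of 20 and 58 of 60. The full rule was met by 5 of the 20 and 26 of the 60. In the 20 members the NTC level itself was lower in experiment 2, with 8 called lower and 1 higher at a median of -0.91, and in the 60 members 13 were called lower and 3 higher. Over all probe sets 0.931% were called lower and 0.854% higher between the NTC groups, and over the 10828 annotated ones 4.53% and 2.12%. Because SA and JA were not run in experiment 2, experiment and control cannot be told apart in these values.

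**Figure D2:**
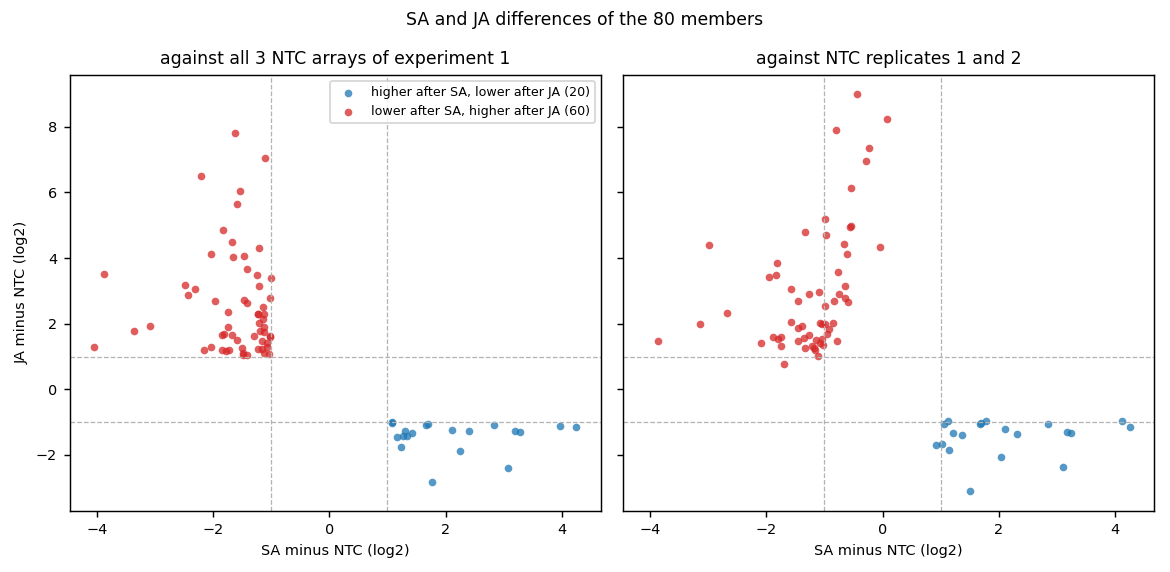
SA minus NTC (horizontal axis) and JA minus NTC (vertical axis), both log2, for the 80 members against all 3 NTC arrays of experiment 1 (left) and against replicates 1 and 2 (right); dashed lines mark differences of 1. On the right, 26 of the 60 members lower after SA no longer meet the rule, among them those with the highest JA values.

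Among the 20 members that were higher after SA, the SA difference ranged from 1.07 to 4.24 with a median of 1.73, and the JA difference from -2.83 to -1.01 with a median of -1.27. The JA change was the larger in size in 5 of 20. In limma 20 of 20 were called higher after SA and 19 of 20 lower after JA, which follows from the rule. In whole leaves, fewer cells of a type and less RNA per cell cannot be told apart in any of these values. A named function was available for 7, and 13 carried only a LOC number.

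The gene LOC101244399 (Solyc08g068870) encodes an aspartic proteinase of the nepenthesin type, a secreted protein-cutting enzyme, and had the largest separation of SA and JA in this direction. Its log2 level was 7.08, 5.77 and 6.49 in the NTC arrays, 9.47, 9.44 and 9.68 after SA, and 3.56, 3.57 and 5.02 after JA. The differences of 3.08 and -2.40 separated all SA and all JA arrays from NTC. The NTC arrays of experiment 2 stood much lower, at 3.27, 4.12 and 4.16, close to the JA arrays.

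A glycerol phosphate acyltransferase (LOC101247838, Solyc07g056320), of the enzyme family that starts the assembly of glycerolipids, showed the largest SA difference of the 20. It read 4.48, 4.50 and 4.53 in NTC, 8.38, 9.12 and 8.73 after SA, and 3.28, 3.54 and 3.20 after JA. The hydrolase LOC101258450 (Solyc00g170200) of the alpha/beta fold family read 3.09, 3.09 and 3.55 in NTC, 6.99, 7.26 and 7.35 after SA, and 2.16, 1.90 and 2.33 after JA. The hydrolase was among the 4 members that missed the rule without the third NTC array, at -0.96 for JA. In both genes the NTC level was low and the difference of 4.24 and 3.96 after SA was far larger than that of -1.16 and -1.11 after JA.

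The aquaporin TIP (Solyc06g060760), a water channel of the vacuolar membrane, read 5.82, 5.84 and 5.71 in NTC, 8.74, 9.49 and 8.97 after SA, and 4.18, 4.13 and 5.20 after JA. The cytochrome P450 LOC101245896 (Solyc10g051020), of a family of oxidizing enzymes of plant metabolism, read 7.27, 7.37 and 7.25 in NTC, 10.17, 10.61 and 10.71 after SA, and 6.14, 5.77 and 6.16 after JA. In both genes the NTC arrays lay close together and apart from SA and from JA.

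The glucosyltransferase LOC101244489 (Solyc05g053890), of an enzyme family that attaches sugar to small molecules, differed by 2.83 after SA and by -1.09 after JA. The zinc finger gene LOC101249062 (Solyc03g115920) differed by 2.11 and -1.23. The NTC of experiment 2 differed from that of experiment 1 by -4.0 for the latter, so that its JA arrays, at 6.38 to 6.85, lay above every NTC array of experiment 2. Of the unnamed members, LOC100750252 had the largest JA difference of the direction, -2.83, with NTC arrays at 5.97, 6.03 and 5.22, SA arrays at 6.85, 8.18 and 7.49 and JA arrays at 3.27, 2.77 and 2.67. For LOC101244097 the array carries 7 other probe sets, so its membership rests on a single probe set of the gene. The brightest of the others, with a highest mean of 6.19, moved the opposite way, by -1.23 after SA and 0.44 after JA. The rest stayed at 2.96 or less in SA, JA and NTC.

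**Figure D3:**
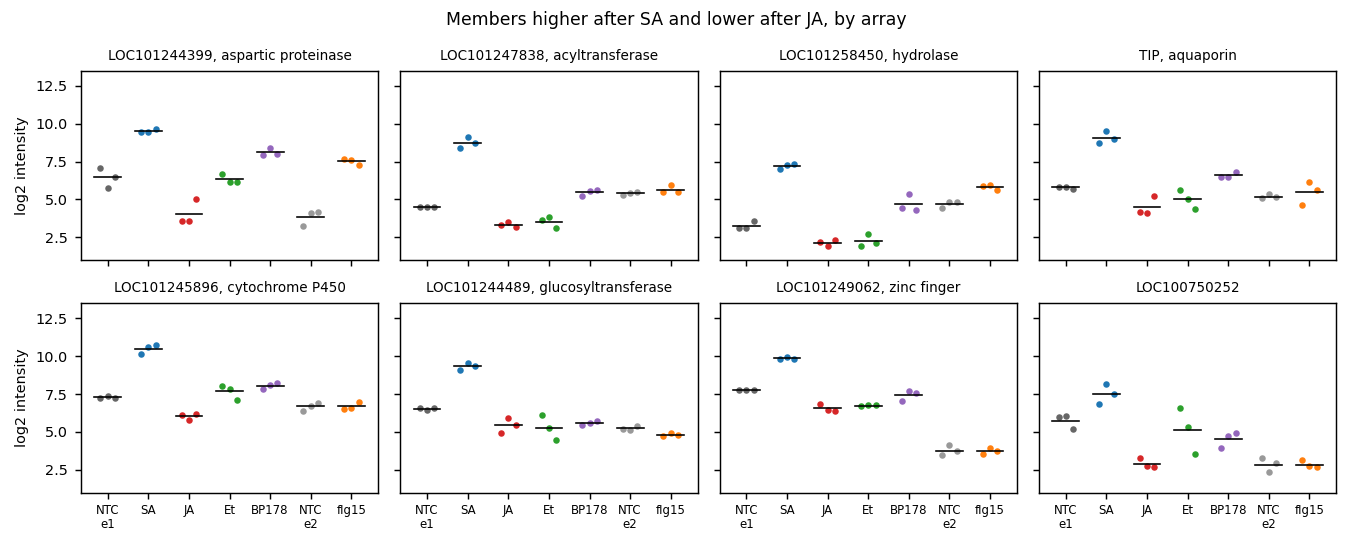
Log2 intensity (vertical axis) of 8 members higher after SA and lower after JA in the 7 groups of 3 arrays; points are arrays and black lines group means. In all 8 panels the SA points lie above and the JA points below those of NTC of experiment 1 (NTC e1), and for LOC101249062 the NTC of experiment 2 (NTC e2) lies below the JA points.

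Among the 60 members that were lower after SA and higher after JA, the JA difference ranged from 1.05 to 7.80 with a median of 1.98 and the SA difference from -4.05 to -1.0 with a median of -1.47. The JA change was the larger in size in 41 of 60. In limma 57 of 60 were called higher after JA and 50 of 60 lower after SA, again as the rule implies. A function or a name of its own was available for 18, and 42 carried only a LOC number. After SA the mean lay below 3 in 11 of 60, near the dim end of the array.

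Annotated inhibitors of digestive enzymes were among the members with large JA differences. LOC101247857 (Solyc09g084480) is annotated as proteinase inhibitor I, a wound-induced inhibitor of serine proteinases, and had the largest JA difference of all members, 7.80. Its level was 2.85, 2.53 and 6.27 in NTC, 2.05, 2.23 and 2.49 after SA, and 11.76, 11.73 and 11.56 after JA. Only the third NTC array stood clearly above SA. Without it the SA difference was -0.44 and the JA difference 8.99, and the gene no longer met the rule.

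The metallocarboxypeptidase inhibitor mcpi (Solyc07g007250), which blocks another class of digestive enzymes, behaved alike, with 2.86, 3.12 and 7.17 in NTC, 2.06, 2.04 and 2.46 after SA, and 10.85, 10.95 and 10.84 after JA. Without the third NTC array its SA difference was -0.80 in place of -2.20. A further proteinase inhibitor I, LOC101265368 (Solyc09g089510), read 6.94, 6.80 and 8.93 in NTC, 5.43, 4.43 and 6.71 after SA, and 11.49, 11.69 and 11.81 after JA. Here all SA arrays lay below all NTC arrays, and the SA difference of -2.03 was -1.34 without the third NTC array.

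The Kunitz-type protease inhibitor LOC101262903 (Solyc03g098780) read 8.29, 8.58 and 10.24 in NTC. It read 6.49, 5.92 and 7.40 after SA and 11.93, 11.88 and 11.90 after JA. Its SA arrays lay below and its JA arrays above all NTC arrays, and it met the rule without the third NTC array as well, at -1.83 and 3.47.

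Enzymes that break down amino acids or oxidize phenols formed a further group. Threonine deaminase (Td, now TD2), which removes an essential amino acid in the gut of insects that feed on the leaf, read 8.65, 8.83 and 10.71 in NTC, 6.35, 6.49 and 7.93 after SA, and 12.59, 12.51 and 12.66 after JA. The groups did not overlap, and its SA difference was -2.48 with all NTC arrays and -1.82 without the third. The arginase ARG2, which degrades arginine, read 4.59, 4.86 and 6.71 in NTC, 4.32, 3.69 and 4.52 after SA, and 9.75, 9.51 and 9.81 after JA. Its SA difference went from -1.21 to -0.54 without the third NTC array, so only its JA difference was large against the spread of NTC.

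The polyphenol oxidases, which turn phenols into reactive quinones, were represented by the genes LOC101259064 (Solyc08g074630) and LOC101259357. LOC101259064 read 6.58, 6.97 and 8.83 in NTC, 5.17, 5.83 and 6.42 after SA, and 11.51, 11.28 and 11.65 after JA. LOC101259357 read 6.82, 6.87 and 7.98 in NTC, 6.20, 5.68 and 6.13 after SA, and 9.19, 9.47 and 9.92 after JA. Neither met the rule without the third NTC array, where their SA differences were -0.97 and -0.84. Another probe set of LOC101259357 differed by only -0.08 after SA and 0.91 after JA, at a level of 3.30 or less.

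The subtilisin-like protease LOC101252447 (Solyc10g084320) differed by -1.21 after SA, or -0.77 without the third NTC array, and by 3.15 after JA. Thus of the 9 inhibitor, amino acid, phenol and protease genes named so far, LOC101265368, LOC101262903 and Td kept an SA difference of at least 1 in size without that array.

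Genes of hormone, isoprenoid and cell wall metabolism were a further group. The steroid reductase gene det2, an enzyme of brassinosteroid synthesis, had the largest SA difference of all 60. It read 7.79, 7.30 and 8.09 in NTC, 3.87, 3.48 and 3.69 after SA, and 8.99, 9.11 and 8.95 after JA, with SA and JA differences of -4.05 and 1.29, or -3.86 and 1.47 without the third NTC array. LOG6, of the family that converts cytokinin precursors to active cytokinin, read 8.75, 8.54 and 8.50 in NTC, 6.49, 6.58 and 7.19 after SA, and 10.16, 10.47 and 10.10 after JA.

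For both genes the SA change exceeded the JA change, unlike for the inhibitors. XTH16, an enzyme that cuts and rejoins xyloglucan in the cell wall, read 8.35, 9.15 and 8.99 in NTC, 7.80, 7.67 and 7.63 after SA, and 10.90, 10.95 and 10.36 after JA. Its NTC arrays of experiment 2, at 10.97 to 11.26, all lay above its JA arrays, and its JA difference against them was -0.42. FPS1, which makes farnesyl diphosphate for sterols and sesquiterpenes, differed by -1.46 and 1.48 after SA and JA without the third NTC array.

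Pathogenesis-related genes were also found in this direction. The osmotin-like gene pr p23 (Solyc08g080650, RefSeq symbol TPM-1), of the PR5 family with antifungal members, read 9.47, 8.64 and 8.34 in NTC, 7.61, 7.32 and 8.07 after SA, and 10.79, 10.79 and 11.32 after JA. It is a member only through the part of the supplementary annotation of the study that was read, which covers transcripts changed after BP178, flg15 or SA, so its peptide values are not independent of how it was chosen. The PR5 gene LOC543878 read 4.56, 4.48 and 5.47 in NTC, 3.11, 3.29 and 3.87 after SA, and 6.70, 7.53 and 8.20 after JA.

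In both PR5-family genes all SA arrays lay below and all JA arrays above the NTC of experiment 1. Against the NTC of experiment 2 the SA difference had the other sign, 1.5 for pr p23 and 1.27 for LOC543878. The peroxidase CEVI-1 (Solyc01g006300) read 8.38, 7.34 and 7.0 in NTC, 6.03, 6.01 and 6.45 after SA, and 8.56, 8.18 and 9.12 after JA. Its JA and NTC arrays overlapped, and without the third NTC array its JA difference was 0.76, below the threshold. Its SA difference also changed sign against the NTC of experiment 2, to 1.49. SPM1 and ZIP were the remaining named members, at -1.13 and 2.29, and -1.22 and 1.22, for SA and JA. Without the third NTC array the SA difference of SPM1 was -0.65, so it missed the rule, while that of ZIP was -1.18.

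Of the members known only by a LOC number, LOC101246961 had a large SA difference. It read 8.35, 8.33 and 11.01 in NTC, 4.92, 5.09 and 6.05 after SA, and 12.76, 12.70 and 12.73 after JA, and its SA difference remained -2.99 without the third NTC array. LOC101251165 and LOC101253698 likewise kept SA differences of -3.15 and -2.68. By contrast LOC543570, with JA arrays at 10.42 to 10.79, had an SA difference of 0.07 without the third NTC array, and it was the only member of the 60 in which the SA difference then changed sign. LOC101245085 is listed as a long non-coding RNA in RefSeq.

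**Figure D4:**
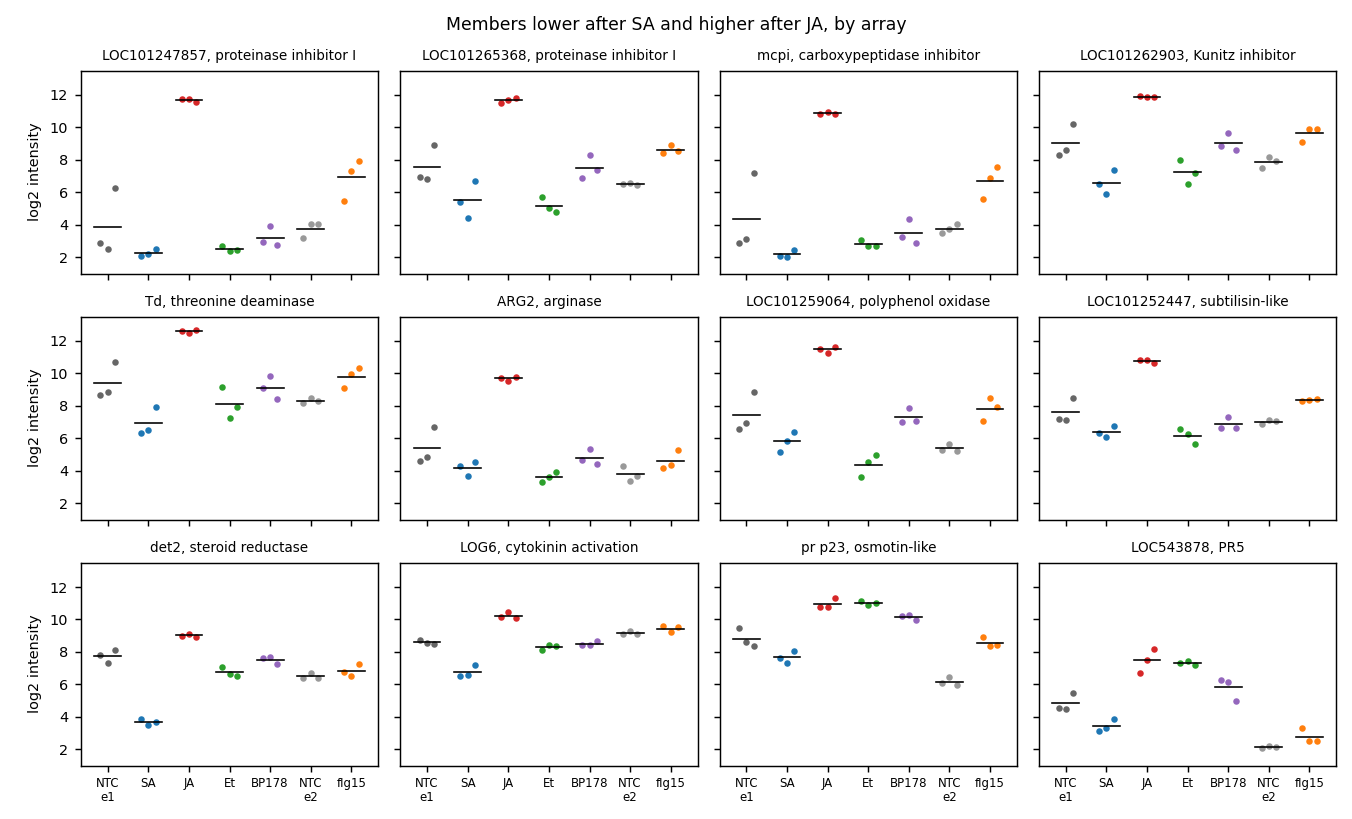
Log2 intensity (vertical axis) of 12 members lower after SA and higher after JA in the 7 groups of 3 arrays; points are arrays and black lines group means. In the panels of the inhibitors and of ARG2 and LOC101259064, 1 NTC array of experiment 1 (NTC e1) stands above the other 2, whereas for det2 and LOG6 the NTC arrays lie together and the SA arrays below them.

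Members just inside the threshold hardly differed from probe sets just outside it. In the SA direction, LOC101255138 lay just inside at 1.07 and -1.01 and LOC101264534 at 1.08 and -1.02. Just outside was a heat shock protein 90 fragment, LOC101260143 (Solyc06g036290), at 2.26 and -0.9997, and LOC101255574 at 1.02 and -0.98. In the JA direction, LOC101264133 lay just inside at -1.0003 and 3.38 and LOC101264199 at -1.02 and 2.77, with LOC101253684 at -0.97 and 1.03 and LOC101267503 at -1.82 and 0.97 just outside. Without the third NTC array the SA differences of LOC101264133 and LOC101264199 were -0.04 and -0.64. The JA difference of LOC101255138 was then -0.96, so none of these members met the rule without it. With a call in limma as the rule over all probe sets, 22 were higher after SA and lower after JA and 51 the reverse.

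Several members are neighbors in the genome. By gene order in the RefSeq assembly SLM_r2.1, 17 of the 80 lie within 5 protein-coding genes of another member. On chromosome 9, 5 members lower after SA and higher after JA (LOC101246961, LOC101247257, LOC101247857, LOC101248423 and LOC101265368) fall in a stretch of 11 genes, which includes both genes annotated as proteinase inhibitor I. Without the third NTC array only LOC101246961 and LOC101265368 of these 5 still met the rule. The SA differences of LOC101247257, LOC101247857 and LOC101248423 were then -0.99, -0.44 and -0.23. Of the 6 other genes of the stretch, 4 have a probe set. LOC543954, known as PIIF, differed by 3.29 after JA and -0.40 after SA, LOC101247557 by 3.27 and -0.93, and LOC101248138 by 1.68 and 0.04. LOC101265677 was dim in all 3 groups, at 1.78 or less. Of these 4, 3 were thus at least 1 higher after JA and missed the SA threshold.

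Adjacent members were mcpi and LOC101253698 on chromosome 7, the polyphenol oxidases on chromosome 8, and LOC101248087 and LOC101247598 on chromosome 12. Of these adjacent members, only LOC101253698 met the rule without the third NTC array. pr p23 and LOC543878 on chromosome 8 are separated by LOC101264959, which differed by 2.95 after JA and -0.85 after SA. LOC101245553 and LOC543570 lie 4 genes apart on chromosome 6, with 3 genes between them at 2.04 or less in all 3 groups. LOC543570 missed the rule without the third NTC array. Also on chromosome 6, LOC101263823 and LOC101262021 lie 4 genes apart and belong to opposite directions, at -1.15 and 1.27 after SA and 1.22 and -1.42 after JA. For near-identical neighbors the probes may read more than the gene they are named for, which was not tested.

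The Et arrays were not used by the rule, although they share the NTC of experiment 1 with it. After Et, 6 of the 20 members higher after SA were called lower and 0 higher, against 0.667% and 1.18% of all probe sets, and 3.14% and 4.39% of the 10828 annotated probe sets. Of the 60 members in the JA direction, 12 were called lower and 7 higher. The median log2FC against all 3 NTC arrays was -0.88 for the 20 and -0.52 for the 60, beside 0.05 for the annotated probe sets. In the 60 the median level was 6.06, 6.06 and 5.72 after Et and 6.03, 6.12 and 7.03 in NTC. These Et medians lay nearer to those of NTC replicates 1 and 2 than to that of replicate 3. Without the third NTC array, 7 of the 20 were called lower, and 8 of the 60 lower and 8 higher, at a background of 0.642% lower and 1.19% higher over all probe sets and 3.05% and 4.55% over the annotated ones.

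The members that were lower after Et in the SA direction included the glucosyltransferase LOC101244489 and the zinc finger gene LOC101249062. LOC101262021 read 5.41, 4.80 and 4.44 after Et and 7.63, 7.73 and 6.94 in NTC, a log2FC of -2.55 (SE 0.26, adjusted p = 2.39e-06). Its Et arrays also lay below the JA arrays, at 5.63 to 6.24. LOC101249062 fell by 1.04 (SE 0.18, adjusted p = 0.000865) and LOC101244489 by 1.23 (SE 0.28, adjusted p = 0.012). The call for LOC101244489 was lost without replicate 3 of Et, where it was -0.81. With the NTC arrays of both experiments as control, LOC101262021 alone of the 6 kept its call.

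In the JA direction the polyphenol oxidase LOC101259064 showed the largest decrease after Et. Its Et arrays read 3.59, 4.52 and 4.95, all below the NTC arrays given above and below the SA arrays, with a log2FC of -3.11 (SE 0.48, adjusted p = 0.000278), or -2.42 (adjusted p = 0.00135) without the third NTC array. The proteinase inhibitor I gene LOC101265368 read 5.74, 5.02 and 4.76 after Et, at -2.38 (SE 0.51, adjusted p = 0.00643), or -1.70 (adjusted p = 0.0475). The subtilisin-like protease LOC101252447 fell by 1.46 (SE 0.29, adjusted p = 0.00348), or by 1.01 (adjusted p = 0.0182) without that array.

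In all 3 genes the Et arrays lay below all NTC arrays. The calls for the Kunitz inhibitor LOC101262903 (log2FC -1.81), ARG2 (-1.76), the polyphenol oxidase LOC101259357 (-1.25) and LOC101266754 (-1.13) were lost without the third NTC array, at -1.20, -1.10, -0.88 and -0.76. LOC101252644 and LOC101253698, at -2.50 and -2.47, and LOC101055528, LOC101243656 and LOC101244887 kept their calls. With the Et and NTC arrays fitted alone, 6 of the 60 were called lower in place of 12, and LOC101265368 (adjusted p = 0.058) and LOC101252447 (adjusted p = 0.0985) lost their calls as well.

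Another set of the 60 was higher after Et. LOC543878 read 7.32, 7.45 and 7.20 after Et, above all NTC arrays and within the range of JA, a log2FC of 2.49 (SE 0.36, adjusted p = 0.000159). pr p23 read 11.11, 10.87 and 11.03 after Et, at 2.19 (SE 0.25, adjusted p = 8.98e-06), also within the range of its JA arrays. Both PR5-family genes were higher after JA and Et and lower after SA.

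LOC101262125 was higher after Et than after JA, at 9.50, 9.75 and 9.66 against 7.72, 7.79 and 8.00, with a log2FC of 3.69 (SE 0.27, adjusted p = 2.37e-08). LOC101268835 rose by 3.43 (SE 0.14, adjusted p = 6.09e-12) and LOC101254927 by 2.51 (SE 0.28, adjusted p = 6.95e-06). ZIP rose by 1.27 (SE 0.19, adjusted p = 0.000158). The increase of LOC101264199, 1.02, was lost in 4 of the fits that left out an Et or NTC array. Without the third NTC array LOC101264531 was called higher as well, by 1.34 (adjusted p = 0.00128).

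**Figure D5:**
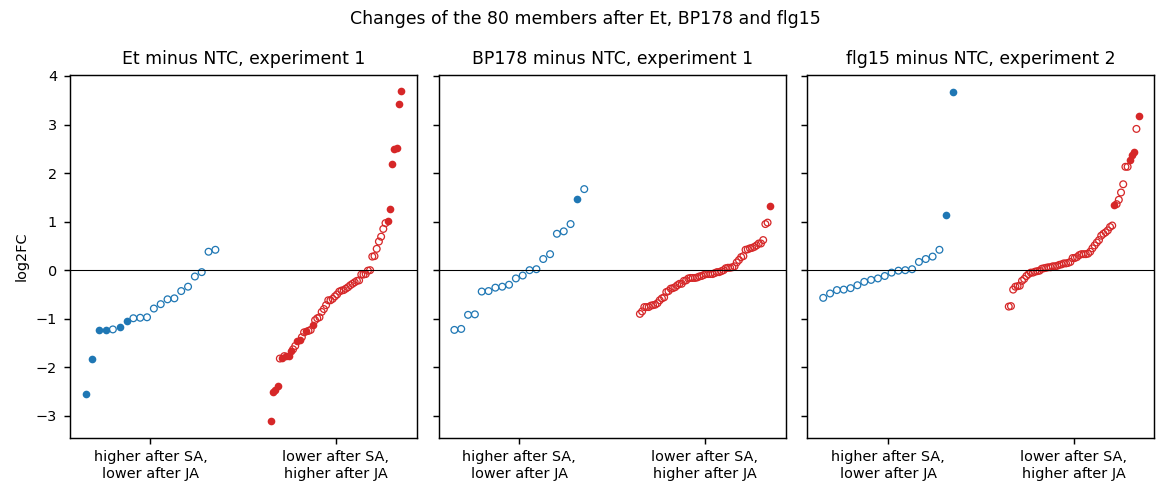
Log2FC (vertical axis) of the 80 members after Et, BP178 and flg15 against the NTC of the same experiment, in increasing order within each direction; filled points are called at an FC of 2 and an adjusted p below 0.05. Et moved the 60 members both down to -3.11 and up to 3.69, few members were called after BP178, and the flg15 calls are all upward.

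Against all 3 NTC arrays of experiment 1, BP178 left most members near NTC. The third NTC array is part of this comparison and lowers the BP178 differences of members in which it is high. The sizes and medians below include that array. In the 60 members the median level was 6.03, 6.12 and 7.03 in the NTC arrays and 6.32, 6.59 and 6.32 in the BP178 arrays. The BP178 medians thus lay above those of NTC replicates 1 and 2 and below that of replicate 3. Whether BP178 left the 60 near NTC therefore depends on that array. BP178 raised 1 of the 20 and 1 of the 60 and lowered 0 by a call, against 0.124% higher and 0.0133% lower over all probe sets and 0.619% and 0.0739% over the annotated ones. The hydrolase LOC101258450 read 4.41, 5.39 and 4.30 after BP178, above NTC in all arrays, with a log2FC of 1.46 (SE 0.25, adjusted p = 0.0106). pr p23 read 10.21, 10.26 and 9.96, at 1.33 (SE 0.25, adjusted p = 0.0266), and without it 0 of 59 were called. Both calls were lost without replicate 2 of BP178 and without replicate 2 of NTC. The aspartic proteinase LOC101244399 read 7.92, 8.40 and 8.03, above all NTC arrays at 1.67, and missed the threshold in limma (adjusted p = 0.0547). The study itself lists this gene as upregulated after BP178 at the same stated cut-offs, with another analysis tool. LOC101262021 read 6.19, 5.75 and 6.66, below all NTC arrays at -1.23, and missed it too (adjusted p = 0.0645). By size alone, 2 of the 20 lay at 1 or more and 2 at -1.0 or less, beside 1.04% and 0.212% of the annotated probe sets. Median log2FC was -0.14 in the 20 and -0.09 in the 60, beside 0.04 for the annotated probe sets. At an unadjusted p below 0.05, 5 of the 20 were higher and 5 lower, and 7 of the 60 higher and 3 lower, beside 12.6% higher and 4.6% lower of the annotated probe sets.

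The flg15 comparison shares no array with the rule. Descriptions of members without a name of their own, though, came from supplementary rows for transcripts changed after BP178, flg15 or SA. Which of these members could be named is therefore not independent of their flg15 values. After flg15, 2 of the 20 and 5 of the 60 members were called higher and 0 lower, against 0.218% higher and 0.0384% lower over all probe sets and 0.794% and 0.0831% of the annotated ones. Without pr p23 the count was 4 of 59. The median log2FC was -0.08 in the 20 and 0.25 in the 60, beside -0.15 for the annotated probe sets, and 45 of the 60 lay above 0. In 20 of the 60 all flg15 arrays lay above all NTC arrays, as in 5.0% of the annotated probe sets, and in 3 of the 20.

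The aspartic proteinase LOC101244399 showed the largest response to flg15. It read 7.65, 7.63 and 7.26 against 3.27, 4.12 and 4.16 in the NTC of experiment 2, a log2FC of 3.67 (SE 0.35, adjusted p = 4.51e-06), and kept its call with any array left out. The hydrolase LOC101258450 read 5.91, 5.95 and 5.60 against 4.43, 4.83 and 4.81, at 1.13 (SE 0.25, adjusted p = 0.0475), and lost its call with any of the 6 arrays left out. The other 18 members of this direction lay between -0.57 and 0.42.

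In the JA direction the proteinase inhibitor I gene LOC101247857 responded most to flg15. It read 5.49, 7.33 and 7.94 against 3.17, 4.04 and 4.06, with no overlap and a log2FC of 3.17 (SE 0.69, adjusted p = 0.0465). Its NTC arrays in experiment 2 spread over less than 1, unlike those of experiment 1. The polyphenol oxidase LOC101259064 read 7.05, 8.49 and 7.92 against 5.30, 5.66 and 5.21, at 2.43 (SE 0.48, adjusted p = 0.0234).

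Both genes rose after flg15 to levels below those of their JA arrays, and both calls were lost without any 1 NTC array of experiment 2. CEVI-1 read 6.65, 7.23 and 6.92 against 4.07, 5.02 and 4.93, at 2.26 (SE 0.33, adjusted p = 0.00102). pr p23 read 8.89, 8.35 and 8.40 against 6.09, 6.48 and 5.94, at 2.38 (SE 0.25, adjusted p = 2.1e-05). Both kept their calls with any array of the comparison left out, while they were lost with the NTC arrays of both experiments as control. The subtilisin-like protease LOC101252447 rose by 1.35 (SE 0.29, adjusted p = 0.0435), a call lost with any of the 6 arrays left out.

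Further inhibitor genes lay above NTC after flg15 without a call. mcpi read 5.56, 6.90 and 7.59 against 3.52, 3.76 and 4.03, a log2FC of 2.91 (adjusted p = 0.0976). LOC101265368 read 8.43, 8.94 and 8.55 against 6.53, 6.56 and 6.46, at 2.13 (adjusted p = 0.076), and the Kunitz inhibitor LOC101262903 differed by 1.77 (adjusted p = 0.102). The fit estimates 1 spread per probe set over all groups, so NTC replicate 3 of experiment 1 widens the error of these genes although it is not part of the comparison. When it was left out, all 3 were called, at adjusted p of 0.000446, 0.0225 and 0.0418, and 2 of the 20 and 8 of the 60 were called higher and 0 lower in all. Of all probe sets 0.214% were then called higher and 0.0325% lower, and of the annotated ones 0.831% and 0.0924%. The same spread also pools the flg15 arrays with narrower groups. For mcpi the standard deviation was 1.03 after flg15 and 0.06 after JA. With the arrays of experiment 2 fitted alone, LOC101247857 lost its flg15 call and LOC101259064 kept it. Values of that fit are not given for mcpi, LOC101265368 and LOC101262903. LOC101247857, LOC101265368 and LOC101262903 are known as inhibitors here only through supplementary rows for transcripts changed after BP178, flg15 or SA. How many inhibitors rose after flg15 is therefore not independent of how they were named.

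Threonine deaminase (Td) read 9.09, 9.95 and 10.31 against 8.17, 8.50 and 8.32, at 1.45 (adjusted p = 0.28). ARG2 overlapped with NTC, and det2 and LOG6 differed by 0.31 and 0.25 after flg15. A log2 difference of at least 1 after flg15 was seen in 12 of the 60 members and in 1.04% of the annotated probe sets.

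The responses to BP178 and flg15, each against its own NTC, differed at an adjusted p below 0.05 in 0 of the 80 members and in 0.0870% of all probe sets. At an unadjusted p below 0.05 they differed in 23 members, or 28.7%, beside 16.3% of the annotated probe sets. The lowest adjusted p was 0.0622, for the subtilisin-like protease LOC101252447, with a difference of -2.08 (SE 0.41) for BP178 against flg15. The largest differences were -3.84 (SE 0.97) for LOC101247857 and -3.82 (SE 1.04) for mcpi. NTC replicate 3 of experiment 1 is part of this contrast. Where that array is high, it lowers the BP178 response and widens the error, so these counts depend on it. Values of the contrast without it are not given here.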

How the data were processed

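Leaf RNA of 7 groups with 3 arrays each was analysed, grouped by the sample labels. The deposited values are log2 intensities that the authors obtained by background correction, normalization and probe set summary with RMA in Expression Console (version: not given in the sources). They run from 0.956 to 13.85. Arrays hold no counts, and precision is limited by their number.

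The model was fitted to 67795 probe sets and 21 arrays with limma 3.58.1 (R 4.3.3), as a mean per group with an empirical Bayes prior. The p-values are two-sided and adjusted by Benjamini-Hochberg over all probe sets, and calls need an FC of 2 or more, or 0.5 or less, and an adjusted p below 0.05. The fit was tested on simulated data. SE is the standard error of the log2FC.

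Symbols came from the annotation of the array (1 symbol for 23194 probe sets, several for 170, none for 44431), and descriptions from the supplementary annotation of the study, of which 112 rows were read for BP178, 191 for flg15 and 573 for SA, the last in part only, and none for JA and Et. The condition on annotation, the number of members with a named function and, in part, the choice of named genes rest on these rows. All 80 members were matched to RefSeq (SLM_r2.1), used for names and gene order only. Promoters were not analysed here. The members, the gene lists and the tests were chosen with earlier results of these data known. Named genes are, among members with a named function, the 12 with the largest differences between SA and JA in each direction, up to 5 of the largest calls per treatment and direction of change, members of the lists, and the 2 nearest on each side of the threshold. Others, such as genes known by a LOC number, were named after their values were seen. The fits without NTC replicate 3 for flg15, without pr p23 and without the condition on annotation were added after seeing the data.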

Additional observations from a re-analysis of the deposited data

How the results depend on the processing

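At a difference of log2(1.5) in place of 1, 99 probe sets were higher after SA and lower after JA and 182 the reverse, at a difference of 1.5 the counts were 3 and 21, and at 2 they were 1 and 6. Leaving out each SA, JA or NTC array in turn gave 19 to 22 and 42 to 64 members, with 42 when NTC replicate 3 was left out. With the NTC of experiment 2 there were 16 and 50 members, of which 5 and 26 were among those described. After Et, 22 to 32 of the 80 members were called with an array of the comparison left out, beside 25, and 17 with the 2 groups alone. With the NTC of both experiments together the Et change reversed for LOC101249062, at 0.96 (adjusted p = 0.685 in limma), and LOC101253320, at 0.36 (adjusted p = 0.894). For BP178, beside 2, the count was 0 at an adjusted p below 0.01 and with the 2 groups alone, 1 with experiment 1 alone and without pr p23, 4 without the dimmest 25% of probe sets and with array weights, and 0 to 2 with an array of the comparison left out. For flg15, beside 7, the count was 3 at an adjusted p below 0.01, 4 with median centring and with the NTC arrays together, 3 to 5 with an array of the comparison left out, and 10 without NTC replicate 3 of experiment 1, which is not part of it. The causes of these shifts were not tested. With the replicate number as a block, 25, 2 and 6 members were called after Et, BP178 and flg15; arrays of the same number did not deviate together (correlations of -0.19 to 0.13), so the numbers were not taken to pair them.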
